A study of Drosophila melanogaster with 6 samples.

Results

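The Uhg genes of Drosophila are hosts of small nucleolar RNAs: long non-coding transcripts whose introns carry snoRNA genes. They were taken from the feature tables as every feature, of any annotation class, whose name after the class starts with Uhg. This gave 42 of 123041 listed features, from 7 hosts: Uhg1, Uhg2, Uhg3, Uhg4, Uhg5, Uhg7 and Uhg8. Reads were present for 23 and 37 of the 42 features in the crosslinked IP libraries, for 38 and 38 in the crosslinked inputs, for 29 in the non-crosslinked IP and for 26 in the non-crosslinked input.

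In a snoRNA host gene the transcript is spliced, and the snoRNA is trimmed out of the excised intron inside a protein complex that protects it. Box C/D snoRNAs, bound by fibrillarin, Nop56 and nop5, guide 2′-O-methylation of ribosomal RNA, and H/ACA snoRNAs, bound by the pseudouridine synthase Nop60B, guide pseudouridylation. The spliced exons of non-coding hosts are usually short-lived by-products, so reads over host exons, host introns and the snoRNAs themselves report on different stages of one transcript. Asterix (Gtsf1) is a zinc-finger protein that acts with Piwi in transcriptional silencing of transposons in ovarian somatic cells.

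The libraries came from OSS cells, an ovarian somatic sheath line, all transiently transfected with Asterix carrying a C-terminal TEV-Strep tag under the act5c promoter, so the tagged protein was expressed beside whatever the cells make themselves. In eCLIP, ultraviolet light fixes proteins to the RNA they touch, RNase I shortens that RNA, and whatever a pull-down recovers is sequenced. The crosslinked IP group (2 libraries on Strep-binding beads) and the crosslinked input group (2 libraries) came from cells irradiated at 254 nm and 400 mJ. The non-crosslinked IP and the non-crosslinked input (1 library each) came from transfected cells without irradiation, and their values have no replicate check. Nothing in the labels says that same-group libraries came from separate cultures, so p-values measure the spread between these libraries, which may be technical.

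Annotated reads numbered 2206919 and 2921685 in the crosslinked IP libraries and 12391586 and 13658478 in the crosslinked inputs. They numbered 2018241 in the non-crosslinked IP and 12499302 in the non-crosslinked input. Ribosomal RNA took 68.0% and 69.5% of the crosslinked IP, 85.8% and 85.6% of the crosslinked input, 60.1% of the non-crosslinked IP and 87.0% of the non-crosslinked input, and levels below are in CPM, reads scaled by the annotated reads of the library, rRNA included. A floor of 3 reads equals 1.36 and 1.03 CPM in the crosslinked IP but 0.242 and 0.220 CPM in the crosslinked inputs, and intervals and floors cover counting error only. The 4 somatic markers tj, fs(1)Yb, piwi and zfh1 were all read, with a summed 824 to 3577 exonic reads a library. The 4 germline markers vas, aub, AGO3 and nos summed to 38.0 and 38 reads in the crosslinked IP, against 4 and 6.17 in the crosslinked input, 23.3 in the non-crosslinked IP and 4.08 in the non-crosslinked input. Most of the germline sum in the crosslinked IP was aub, with 29.8 and 25.1 reads there, and its part in the results on Uhg genes was not tested. The non-crosslinked input stood apart from the crosslinked inputs in its snoRNA and Uhg4 reads, as given below. It enters no main test, only alternative fits that add the non-crosslinked libraries.

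The hosts differ in size and cargo. In the Release 6 annotation Uhg1 spans 4248 bases of chromosome arm 2R and holds 16 snoRNA genes, Uhg5 spans 2898 bases of 2R and holds 11, and Uhg4 spans 2040 bases of 2R and holds 7. Uhg2 lies at 2L:9893805-9895003 with 4 snoRNA genes and Uhg3 at 2L:20647533-20648848 with 3. Uhg7 lies at 3L:1666288-1667307 with 4 snoRNA genes and Uhg8 at 3L:20453293-20454731 with 3. The spans of Uhg1, Uhg4, Uhg7 and Uhg8 overlap those of other genes (CG6424 and CG46315, Ctu1, CG7974 and RpL23A, and atk, in that order), and whether the counting used strand is not given in the sources used here, so reads over the shared bases are uncertain. All 48 snoRNA genes inside the 7 spans were listed in the tables. By name 2 of them are H/ACA RNAs, Psi28S-2949 and Or-aca5, both in Uhg4.

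Transcript and intron reads were listed for different hosts. Whether the transcript features leave out the bases of the introns is not given in the sources used here, so their reads need not be exonic. Uhg1 had 18 intron features and Uhg5 had 12, while Uhg2, Uhg3, Uhg4, Uhg7 and Uhg8 had transcript features of the lncRNA class. The lncRNA features of Uhg1 held 1 read in all 6 libraries, in crosslinked IP 2, and no intron feature was listed for the other 5 hosts. No host therefore had both parts at 3 reads or more, and exon and intron could not be compared within a host. Uhg1 and Uhg5 also had 1 feature each in the piRNA-cluster class, with at most 6 reads in any library, which were counted as neither part.

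Among the Uhg transcripts, Uhg4 carried the most reads. Its single transcript feature had 167 and 215 reads in the crosslinked IP, against 1242 and 1159 in the crosslinked input. Scaled to depth this was 75.7 and 73.6 CPM in the crosslinked IP, against 100 and 84.9 CPM in the crosslinked input. Without crosslinking it was 94.6 CPM in the IP and 171 CPM in the input. The IP library was the lower one in each kind of preparation, the crosslinked groups did not overlap, and the non-crosslinked input was the highest of the 6 libraries. Uhg4 fell in the crosslinked IP with a log2 fold change of -1.12 (edgeR adjusted p 0.00318, SE 0.22). That call was lost with library size alone (-0.31, edgeR adjusted p 0.243) and with limma on log2 RPM (-0.40, limma adjusted p 0.0983). Without crosslinked IP replicate 2 the log2 fold change was smaller, at -0.71.

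Uhg2, the host of the U14 snoRNA genes, was the next transcript. Its 2 transcript models shared their reads evenly and together had 83 and 118 reads in the crosslinked IP, against 375 and 479 in the crosslinked input. These were 37.6 and 40.4 CPM in the crosslinked IP, against 30.3 and 35.1 CPM in the crosslinked input, with no overlap. The non-crosslinked IP stood at 113 CPM and the non-crosslinked input at 8.40 CPM, the highest and the lowest of the 6 libraries. Each transcript model had a log2 fold change of -0.53 (edgeR adjusted p 0.0356, SE 0.18). The direction rests on the scaling: with library size alone it was 0.26 (edgeR adjusted p 0.395), as the CPM values show. Without crosslinked IP replicate 1 or 2 it was -0.19 each time (edgeR adjusted p 0.625 and 0.689).

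**Figure D1:**
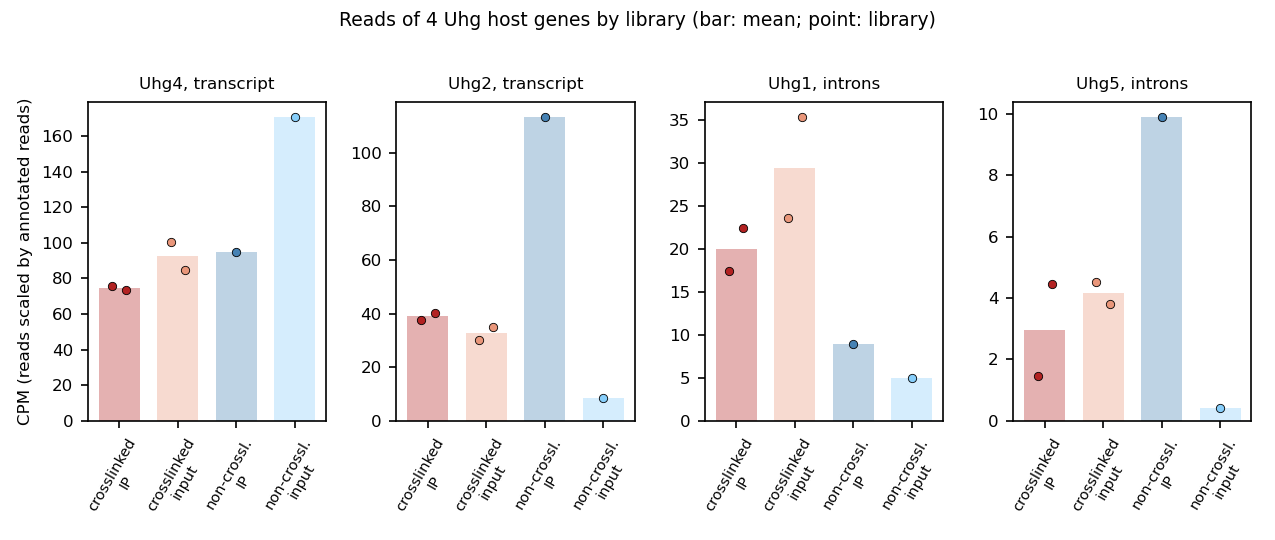
CPM (reads scaled by annotated reads, y axis, each panel with its own scale from 0) of Uhg4, Uhg2, Uhg1 introns and Uhg5 introns in the 4 groups. Points are libraries and bars are group means. Uhg4 is highest in the non-crosslinked input (171 CPM), Uhg2 in the non-crosslinked IP (113 CPM) and the Uhg1 introns in the crosslinked inputs (23.6 and 35.4 CPM).

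Uhg1 was represented by its introns. Summed, they had 38.5 and 65.5 reads in the crosslinked IP, against 292 and 483 in the crosslinked input. Their level was 17.4 and 22.4 CPM in the crosslinked IP, against 23.6 and 35.4 CPM in the crosslinked input, and without crosslinking 8.92 CPM in the IP and 4.96 CPM in the input. Every crosslinked library was above both non-crosslinked ones, and the crosslinked groups did not overlap. Intron 8, numbered as in the files, held the most reads of the 18 introns in each crosslinked library. It took 57.1% and 42.7% of the Uhg1 intron reads in the crosslinked IP, against 56.8% and 64.0% in the crosslinked input, with 38.9% in the non-crosslinked IP and 24.2% in the non-crosslinked input. It had 22 and 28 reads in the crosslinked IP, against 166 and 309 in the crosslinked input, with 7 in the non-crosslinked IP and 15 in the non-crosslinked input. It fell with a log2 fold change of -1.67 (edgeR adjusted p 0.000908, SE 0.26), and it stayed lower with library size alone (-0.89, edgeR adjusted p 0.0202).

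The other Uhg1 introns were thin. Of the 18, 5 were lower in both crosslinked IP libraries than in both crosslinked inputs in CPM, 5 were higher in both, and 8 overlapped. The share of all features that separated in this way was not worked out, so these counts are no result about the Uhg1 introns. Intron 2 had 1.5 and 5 reads in the crosslinked IP, against 22 and 52 in the crosslinked input (log2 fold change -1.82, edgeR adjusted p 0.0212), a call lost with library size alone (-1.04, edgeR adjusted p 0.160) and with DESeq2 (adjusted p 0.121). Intron 11 had 0 and 1 reads in the crosslinked IP, against 22 and 18 in the crosslinked input, a CPM ratio of IP over input of 0.127 with a 95% exact counting interval of 0.00314 to 0.749 (edgeR adjusted p 0.00774, DESeq2 adjusted p 0.0772). Intron 7 went the other way in value, with 5 and 5 reads in the crosslinked IP, against 8 and 9 in the crosslinked input. Its log2 fold change was 0.77 (edgeR adjusted p 0.243), and it passed only with library size alone (1.56, edgeR adjusted p 0.0220) and with limma on log2 RPM (0.78, limma adjusted p 0.0169).

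Uhg5 introns had 3.25 and 13 reads in the crosslinked IP, against 56 and 52 in the crosslinked input, with 20 in the non-crosslinked IP and 5 in the non-crosslinked input. The 2 crosslinked IP libraries differed among themselves by more than the inputs did, and the non-crosslinked IP was above its input. Intron 9 was the only one of the 12 to be tested. It had 1 and 2 reads in the crosslinked IP, against 17 and 19 in the crosslinked input, a CPM ratio of 0.423 whose 95% exact counting interval, 0.0834 to 1.34, includes 1. In the TMM-scaled fit it was called lower (edgeR adjusted p 0.0144), but not with library size alone (edgeR adjusted p 0.166). Intron 2 had 0 and 1 reads in the crosslinked IP, against 22 and 16 in the crosslinked input, and did not pass the count filter.

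The remaining hosts stayed near the floor. Uhg7 had 4 and 4 reads in the crosslinked IP, against 10 and 12 in the crosslinked input, with 3 in the non-crosslinked IP and 0 in the non-crosslinked input, and its log2 fold change was 0.09 (edgeR adjusted p 0.900, SE 0.45). Uhg3 had 4 and 2 reads in the crosslinked IP, against 2 and 8 in the crosslinked input, with 4 in the non-crosslinked IP and 9 in the non-crosslinked input. Uhg8 had 2 and 5 reads in the crosslinked IP, against 0 and 4 in the crosslinked input, with 7 in the non-crosslinked IP and 2 in the non-crosslinked input. In CPM all 3 hosts were higher in both crosslinked IP libraries than in both crosslinked inputs, as was Uhg2 but not Uhg4 or the Uhg1 introns. With library size alone, the scale of CPM, the median log2 fold change of everything tested was 0.76, and Uhg7 had 0.87. Uhg3 had 1.81 and 0.685 CPM in the crosslinked IP, against 0.161 and 0.586 CPM in the crosslinked input. Uhg7 had 1.81 and 1.37 CPM in the crosslinked IP, against 0.807 and 0.879 CPM in the crosslinked input. Uhg8 had 0.906 and 1.71 CPM in the crosslinked IP, against 0 and 0.293 CPM in the crosslinked input. Uhg3 and Uhg8 did not pass the count filter and were not tested, and several of these levels lie under the floor of 3 reads.

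**Figure D2:**
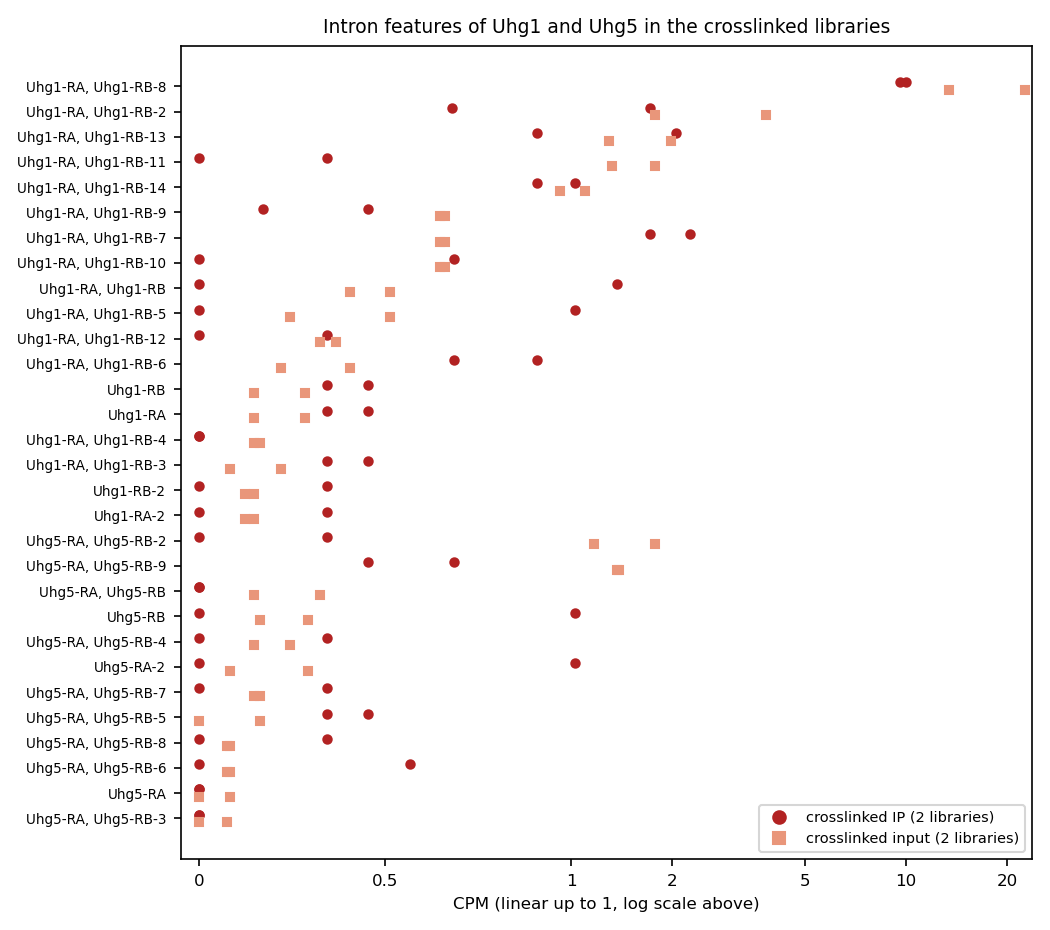
CPM (x axis, linear up to 1 and log scale above) of the 18 Uhg1 and 12 Uhg5 intron features in the 2 crosslinked IP libraries (circles) and the 2 crosslinked inputs (squares), 1 feature per line, labelled by transcript models and number as in the files. Intron 8 of Uhg1 is the only feature above 5 CPM, and its inputs (13.4 and 22.6 CPM) lie above its IP libraries (9.97 and 9.58 CPM).

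Over all Uhg features, the comparison of crosslinked IP with crosslinked input tested 10 of 42, and the other 32, with at most 22 reads in any library, did not pass the count filter. Of the 10, 7 were called lower, beside 26.0% of the 13471 features tested in the whole table, and 0 were called higher, beside 29.6% (edgeR, quasi-likelihood test with Benjamini-Hochberg adjustment). The 7 include both models of Uhg2, which are the same reads divided evenly. They also include Uhg1 intron 11 and Uhg5 intron 9, which reached the filter level of 1.31 CPM only in the crosslinked inputs. For these introns the filter itself favours a lower value, so their calls add no support. Uhg1 intron 7 and Uhg7, neither of them called, reached that level only in the crosslinked IP libraries. The 4 tested transcript features (Uhg2 in 2 models, Uhg4 and Uhg7) gave 3 lower and a median log2 fold change of -0.53, and the 6 tested introns gave 4 lower and a median of -1.74. TMM scaling put the median log2 fold change of everything tested at -0.03, scaling by library size alone at 0.76 and leaving rRNA out of the library size at -0.36, so fold changes are relative to that scale. At an unadjusted p under 0.05 also 0 were higher, while DESeq2 called 0 higher and 2 lower and limma on log2 RPM 1 higher and 3 lower. Lower calls numbered 2 of 10 with library size alone. Leaving out a crosslinked library changes which features pass the filter: 3 of 13 tested were lower without crosslinked IP replicate 1, 3 of 12 without crosslinked IP replicate 2, 5 of 5 without crosslinked input replicate 1 and 4 of 4 without crosslinked input replicate 2. When both non-crosslinked libraries joined the control, 0 of 13 were lower, in a fit that called 2 of 16030 features. The log2 fold changes there were -1.37 for Uhg4, -0.62 for Uhg2 and -0.92 for Uhg1 intron 8.

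Set beside features of their own class, the Uhg features lay toward the lower end. Of 3414 other introns tested, 56.9% were called higher and 1.32% lower, with a median log2 fold change of 1.18. Of 154 other lncRNA features, 64.3% were called higher and 1.30% lower, with a median of 1.89. Of 7973 exons, 13.6% were called higher and 36.5% lower. A feature with few input reads can pass the filter only when it is high in the IP, because the filter level of 1.31 CPM is 2.88 reads in the smallest crosslinked IP library but 16.2 reads in the smaller crosslinked input. Among the 1155 other introns that reached that level in both crosslinked inputs, 43.0% were higher, 3.90% lower and the median was 0.57. Among the 48 such lncRNA features 41.7% were higher, 4.17% lower and the median was 0.24. The Uhg1 intron 8 (-1.67) and the Uhg4 transcript (-1.12), both above that level in both inputs, lay below these intron and lncRNA medians. Among the 4996 exons at that level in both inputs the median was -1.17, close to the value of Uhg4. These figures describe where the members lie and are no test of the group.

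The reads of each host were also summed by class. In that fit of 9522 entries, 28.4% were called lower and 32.1% higher, and 4 of the 5 tested Uhg entries were called lower. Uhg1 introns had a log2 fold change of -1.47 (edgeR adjusted p 0.000166, SE 0.22) and Uhg4 of -1.26 (edgeR adjusted p 0.000414, SE 0.21). Leaving out each library in turn gave values of -1.84 to -1.06 for Uhg1 introns and -1.66 to -0.95 for Uhg4. Uhg4 has a single transcript feature, so summing left its reads unchanged. In the fit of features the same reads gave -0.71 without crosslinked IP replicate 2, so the difference comes from the change of fit. Uhg5 introns had -1.35 (edgeR adjusted p 0.0188, SE 0.43) but -0.58 without crosslinked IP replicate 1 (edgeR adjusted p 0.255). Uhg2 had -0.67 (edgeR adjusted p 0.00656, SE 0.17) but -0.38 and -0.44 without crosslinked IP replicates 1 and 2 (edgeR adjusted p 0.161 and 0.119). Uhg7 had -0.04 (edgeR adjusted p 0.959). With library size alone none of the 5 was called, at -0.55 for Uhg1 introns, -0.31 for Uhg4, -0.43 for Uhg5 introns, 0.26 for Uhg2 and 0.88 for Uhg7, where the median of all entries was 0.85.

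The share of transcript reads among transcript plus intron reads does not depend on library scaling. It was 86.2% and 81.5% in the crosslinked IP, against 82.4% and 75.6% in the crosslinked input. The crosslinked groups overlapped, with a difference of 4.79 percentage points (exact two-sided permutation p 0.667, 2 libraries against 2, where the smallest possible p is 0.333). The non-crosslinked IP had 91.9% (95% Wilson interval 89.1% to 94.1%) and the non-crosslinked input 97.1% (96.3% to 97.7%). Since transcripts and introns come from different hosts here, this share compares Uhg2, Uhg3, Uhg4, Uhg7 and Uhg8 with Uhg1 and Uhg5. Without Uhg4 it was 69.0% and 62.4% in the crosslinked IP, against 52.7% and 48.5% in the crosslinked input, with no overlap, and 86.5% in the non-crosslinked IP, against 63.4% in the non-crosslinked input.

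The snoRNA genes inside the hosts followed another course. Of the 48, 46 were tested: 16 were called higher, 4 lower and 26 neither, with a median log2 fold change of 0.39, beside 47.6% higher and 9.44% lower and a median of 0.60 among the 233 tested snoRNA features. The split moves with the scaling, to 36 higher and 2 lower with library size alone and to 9 higher and 9 lower without rRNA in the library size. In CPM 40 of the 46 were above both crosslinked inputs in both crosslinked IP libraries, but the share of all features that did so was not worked out. With library size alone, the scale of CPM, the median log2 fold change was 1.18 for the 46. It was 1.40 for the 233 snoRNA features and 0.76 for everything tested, so the count of 40 cannot be read as a trait of these genes. Fold changes of snoRNA genes from the fit of features were set against those of host reads summed by class, a separate fit. All 16 tested snoRNA genes in Uhg1 lay above the Uhg1 introns. So did 4 of 4 in Uhg2 and 7 of 7 in Uhg4 above their host transcript, and 9 of 10 in Uhg5 above its introns. In Uhg7 this held for 1 of 3. In Uhg1 the count of 16 rests on a narrow margin: U27:54Eb had -1.46, against -1.47 for the introns. With library size alone in both fits U27:54Eb lay below the introns, at -0.66 against -0.55. These snoRNA genes made up 3.00% and 3.43% of all snoRNA reads in the crosslinked IP, against 3.06% and 3.62% in the crosslinked input.

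Psi28S-2949, the Uhg4 H/ACA RNA named for a pseudouridine of 28S rRNA, gained most among those with ample reads. It had 671 and 949 reads in the crosslinked IP, against 208 and 291 in the crosslinked input, with 1023 in the non-crosslinked IP and 99 in the non-crosslinked input. Every IP library exceeded every input in reads, and the log2 fold change was 3.25 (edgeR adjusted p 1.35e-05, SE 0.21). Its CPM was higher still without crosslinking, at 507 CPM in the non-crosslinked IP, against 304 and 325 CPM in the crosslinked IP. Or-aca5, the other H/ACA RNA and the most abundant of the 48, had 2740 and 4174 reads in the crosslinked IP, against 7862 and 7887 in the crosslinked input, with 3318 in the non-crosslinked IP and 9598 in the non-crosslinked input. Its log2 fold change of 0.33 did not pass (edgeR adjusted p 0.265), although it did with library size alone (1.14, edgeR adjusted p 4.41e-05).

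Among the other snoRNA genes, many of them named for the rRNA nucleotide they guide, calls went both ways in Uhg1, Uhg5 and Uhg7, while Uhg2, Uhg3 and Uhg4 had higher calls only and Uhg8 had none. In Uhg4 Me28S-G3255a rose, with 210.5 and 281.5 reads in the crosslinked IP, against 172 and 250 in the crosslinked input (log2 fold change 1.78, edgeR adjusted p 0.000141). In Uhg2 Me18S-A1576 rose, with 85 and 131 reads in the crosslinked IP, against 66 and 120 in the crosslinked input (1.77, edgeR adjusted p 0.000268), and its non-crosslinked IP, with 254 reads, was the highest library. In Uhg1 U27:54Eb fell, with 64 and 73 reads in the crosslinked IP, against 511 and 596 in the crosslinked input (-1.46, edgeR adjusted p 0.000491). Its near namesake U27:54Ea rose, with 30 and 40 reads in the crosslinked IP, against 36 and 59 in the crosslinked input (1.11, edgeR adjusted p 0.00296). In Uhg5 Me18S-C1366 fell, with 72 and 134 reads in the crosslinked IP, against 850 and 792 in the crosslinked input (-1.50, edgeR adjusted p 0.00123). The fractional reads of many copies (such as U29, U31 and Me28S-C2645) show that reads were divided among like sequences, so the values of single copies are uncertain.

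**Figure D3:**
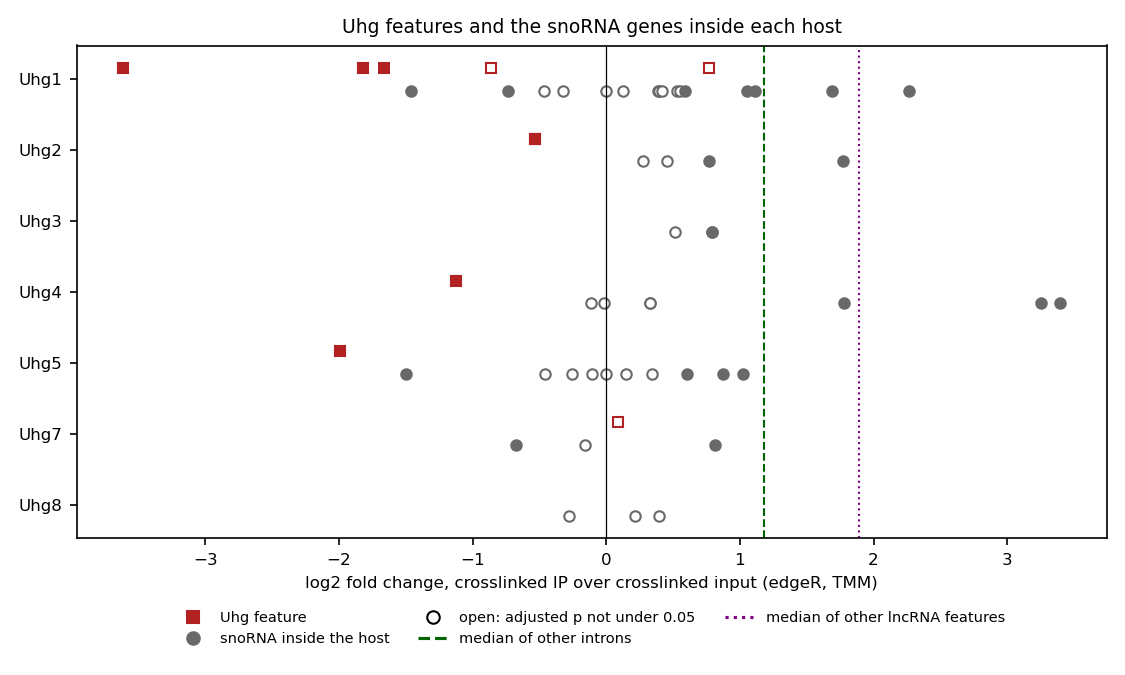
Log2 fold change of crosslinked IP over crosslinked input (x axis, TMM scale) for each tested Uhg feature (squares) and each tested snoRNA gene inside the host (circles), by host. Filled symbols passed an adjusted p of 0.05, the dashed and dotted lines are the medians of other introns (1.18) and other lncRNA features (1.89), and the leftmost Uhg1 square rests on 1 IP read. Both Uhg2 models coincide, and most circles lie right of their host's filled squares.

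Host and snoRNA reads of the same span were next set against each other within each library, which needs no scaling. All Uhg features together had 4.44 and 4.15 reads per 100 snoRNA reads in the crosslinked IP, against 11.3 and 10.7 in the crosslinked input. The groups did not overlap, and the means were 4.29 ± 0.208 in the crosslinked IP, against 11.0 ± 0.369 in the crosslinked input (SD, n = 2 each), with an exact two-sided permutation p of 0.333, the smallest that 2 libraries against 2 allow. The non-crosslinked IP had 5.98 and the non-crosslinked input 20.7 host reads per 100 snoRNA reads. In both preparations the IP library was the lower. The log2 change of the crosslinked ratio was -1.36, and no such ratio was worked out for other genes. In the feature fit the median log2 fold change was 0.60 for snoRNA features and -0.76 for exons. It was 1.18 for other introns and 1.89 for other lncRNA features. Among features at the filter level in both crosslinked inputs, the median was 0.53 for snoRNA features and -1.17 for exons. There it was 0.57 for other introns and 0.24 for other lncRNA features. Exons in general thus lay below snoRNA features in either selection, and introns in neither. For lncRNA features the order depended on the selection.

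Taken singly, Uhg1, Uhg4, Uhg2 and Uhg5 each had a lower ratio in both crosslinked IP libraries than in both crosslinked inputs. Uhg1 had 4.80 and 5.60 host reads per 100 snoRNA reads in the crosslinked IP, against 12.4 and 13.7 in the crosslinked input, with 3.07 in the non-crosslinked IP and 7.60 in the non-crosslinked input. Uhg4 had 4.22 and 3.54 in the crosslinked IP, against 13.1 and 11.6 in the crosslinked input, with 3.98 in the non-crosslinked IP and 21.7 in the non-crosslinked input. In both hosts every IP library was below every input. Uhg2 had 19.2 and 19.0 in the crosslinked IP, against 41.8 and 44.7 in the crosslinked input, with 57.0 in the non-crosslinked IP and 309 in the non-crosslinked input. Uhg5 had 0.349 and 0.856 in the crosslinked IP, against 1.60 and 1.21 in the crosslinked input, with 1.64 in the non-crosslinked IP and 1.60 in the non-crosslinked input, so its non-crosslinked pair did not separate, and its first crosslinked IP value rests on 4.25 host reads. The other 3 hosts, with at most 12 host reads in any library, did not show this: the mean was 1.06 in the crosslinked IP, against 0.863 in the crosslinked input, for Uhg3. It was 4.76 in the crosslinked IP, against 3.74 in the crosslinked input, for Uhg7, and 2.85 in the crosslinked IP, against 0.532 in the crosslinked input, for Uhg8. The exact permutation test cannot give less than 0.333 for any host.

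**Figure D4:**
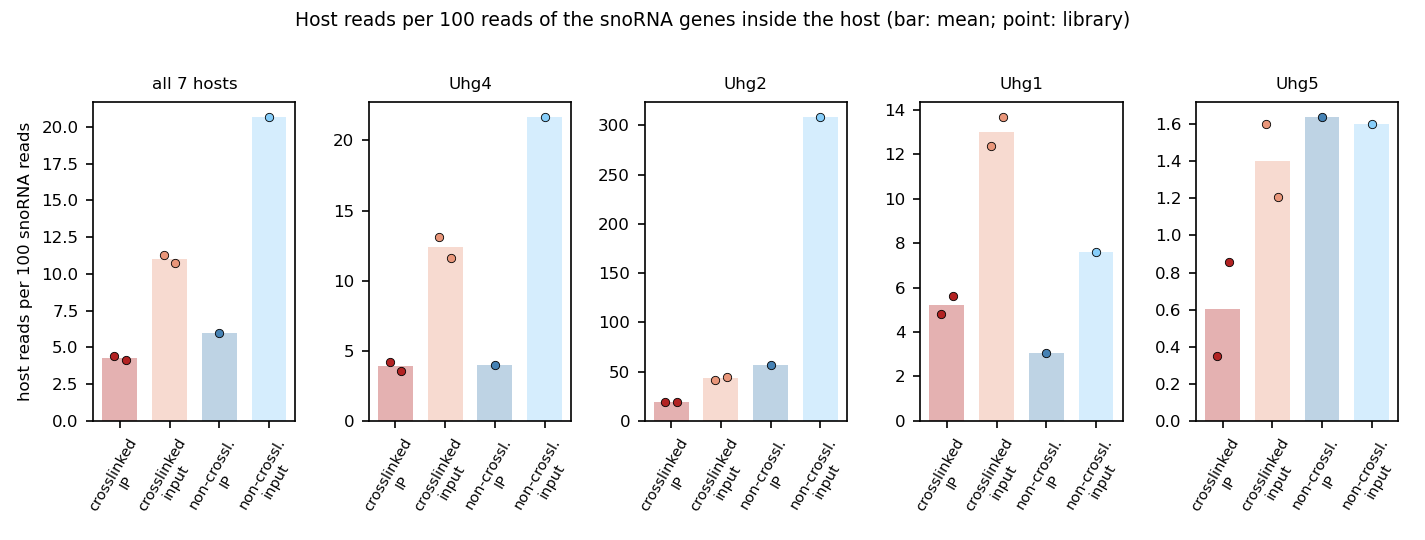
Host reads per 100 reads of the snoRNA genes inside the same host (y axis, each panel with its own scale from 0) for all 7 hosts together and for Uhg4, Uhg2, Uhg1 and Uhg5. Points are libraries and bars are group means. The crosslinked IP libraries lie below the crosslinked inputs in every panel (4.44 and 4.15 against 11.3 and 10.7 for all hosts).

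The non-crosslinked input stood apart in its snoRNA reads. The 46 snoRNA genes not named as H/ACA summed to 122 CPM there, against 774 and 904 CPM in the crosslinked inputs. Of the 46, 43 were below both crosslinked inputs, a count for which the share over all features was not worked out. The 2 H/ACA RNAs summed to 776 CPM in the non-crosslinked input, against 651 and 599 CPM in the crosslinked inputs. Or-aca5 alone made up 97.5% of the Uhg4 snoRNA reads in the non-crosslinked input, against 83.0% and 79.2% in the crosslinked inputs. Without H/ACA RNAs, host reads per 100 snoRNA reads were 8.77 and 8.22 in the crosslinked IP, against 20.7 and 17.8 in the crosslinked input, and 13.1 in the non-crosslinked IP, against 152 in the non-crosslinked input. Whether crosslinking or the single library sets these values cannot be told apart, since the non-crosslinked input has no replicate.

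The makeup of the Uhg reads shifted along with this. Uhg4 gave 54.4% and 50.2% of them in the crosslinked IP, against 62.5% and 52.6% in the crosslinked input, 40.0% in the non-crosslinked IP and 91.9% in the non-crosslinked input. Uhg2 gave 27.1% and 27.5% in the crosslinked IP, against 18.9% and 21.7% in the crosslinked input, 47.9% in the non-crosslinked IP and 4.52% in the non-crosslinked input. Uhg1 gave 13.9% and 16.2% in the crosslinked IP, against 15.0% and 22.1% in the crosslinked input, 4.60% in the non-crosslinked IP and 2.80% in the non-crosslinked input. By level, Uhg4 was above Uhg2 and Uhg2 above Uhg1 introns in both crosslinked IP libraries, while Uhg2 exchanged places with Uhg4 in the non-crosslinked IP and the Uhg1 introns of crosslinked input 2 (35.4 CPM) reached those of Uhg2 (35.1 CPM). These levels are not divided by length, so they order reads and not molecules.

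The proteins that bind these snoRNAs gave few reads in their own transcripts. Of the 9 listed, 5 had a tested exon, and of the 7 exon features tested 4 were called lower, beside 36.5% of all exons tested, in Fib (fibrillarin, the methyltransferase), Nop56, nop5 and Nopp140. For Nopp140, a nucleolar chaperone of these particles, the feature had 3 and 0 reads in the crosslinked IP, against 43 and 37 in the crosslinked input (edgeR adjusted p 0.00716). Nop60B, for which RefSeq gives the synonym Uhg6, had abundant intron reads: its intron 2 had 735 and 943 reads in the crosslinked IP, against 2992 and 3301 in the crosslinked input, with 1092 in the non-crosslinked IP and 4470 in the non-crosslinked input. Its log2 fold change of -0.36 did not pass (edgeR adjusted p 0.168, SE 0.21).

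The genes whose profile over the 6 libraries was most like that of the Uhg transcripts were CG10631, Bap111, CG42327, RpL26 and Glg1, with Pearson correlations of log2(CPM + 1) of 0.84, 0.79, 0.78, 0.77 and 0.76 among 1061 genes with a mean of at least 10 CPM. Those most like the Uhg introns were CG1646, CG34355, CR45184, Atg18b and RpL7A, with 0.98, 0.87, 0.86, 0.72 and 0.63 among 597 genes. The median over the candidates was -0.03 for the transcripts and -0.12 for the introns. CG1646 introns had 30.7 and 43.1 CPM in the crosslinked IP, against 47.3 and 46.9 CPM in the crosslinked input, and without crosslinking 31.7 CPM in the IP and 13.0 CPM in the input. The 6 points share library depth and rRNA content, and these correlations are descriptions only.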

How the data were processed

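The members and gene lists were chosen with earlier results of these data known. Per the file contents, the authors deposited for each library estimated counts per feature, in which a read is divided among features of a class, and RPM values, the same counts scaled to their own total. The authors also deposited a ratio per feature, with no stated formula: 9 of its 31256 rows are Uhg features, and its values are not used. The submitters' processing notes name bcl2fastq 2.19, STAR 2.5.2b, bedtools 2.29.0 and the builds dm6 and mm10, without roles; read filters, removal of duplicate reads and strand are not given in the sources used here.

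Rows without annotation (8.89%, 7.87%, 2.15%, 2.21%, 13.6% and 3.23% of crosslinked IP 1 and 2, crosslinked input 1 and 2, non-crosslinked IP and non-crosslinked input) were left out. Counts were rounded and fitted with edgeR 4.0.16 in R 4.3.3 (TMM, filterByExpr, quasi-likelihood test, two-sided, Benjamini-Hochberg over 13471 features, threshold 0.05, common dispersion 0.0185), crosslinked IP against crosslinked input only. An SE is the absolute log2 fold change over the root of its F statistic. On data simulated for this comparison over 13471 features, 60.5% of 200 features changed 4-fold were recovered and 3.97% of the calls were false. Alternatives used DESeq2 1.42.0 and limma 3.58.1 (log2(RPM + 1)); other values used Python 3.11.15, pandas 2.3.3 and scipy 1.17.1.

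Named features were the sums of every host, the highest exonic and intronic feature of each host, the extremes of log2 fold change, the 5 genes most alike, and the lists. Other features, chosen after their values were seen, are the further Uhg1 and Uhg5 introns and single snoRNA genes. snoRNA genes within a host were found by position in RefSeq's Release 6 gene list, which matched 238 of 248 listed snoRNA features; it gives no strand, so strand was not required as had been planned. The ratio of host to snoRNA reads was added after the files were read. The deviations of crosslinked IP 1 and crosslinked input 1 from their group means correlated at 0.0911 over the tested features, so the numbers were not taken to pair the libraries.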

Additional observations from a re-analysis of the deposited data

Results flagged for a closer look

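The intron reads of Uhg1 were lower in the crosslinked IP than in its input but higher in the non-crosslinked IP than in its input, at 8.92 CPM against 4.96 CPM, a log2 ratio of 0.85. The opposite directions were not tested, since the non-crosslinked pair has 1 library a side. With rRNA left out of the total the non-crosslinked IP was the lower one too, at 22.4 against 38.1 CPM, so the opposition rests on the scaling.

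Host reads of Uhg5 per 100 of its snoRNA reads were lower in the crosslinked IP than in its input, while in the non-crosslinked pair the IP was the higher by a log2 ratio of 0.0361, at 1.64 against 1.60. This rests on 22 host reads in the non-crosslinked IP and 6 in the non-crosslinked input, and the difference was not tested.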

How the results depend on the processing

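Of the 10 tested Uhg features, the 7 called lower and 0 called higher became 2 lower and 1 higher with library size alone, and 3 lower and 1 higher with limma on log2(RPM + 1). The lower calls were 4 of 4 tested with at least 10 counts in every library, 2 with DESeq2's Wald test, 4 of 5 tested when summed by gene within class, and 0 of 13 when the control held every input plus the non-crosslinked IP, where 2 features of the whole table were called. Leaving out 1 crosslinked library gave 3 to 5 lower calls and 0 higher; 3 of 13 and 3 of 12 tested were lower without crosslinked IP replicates 1 and 2, and all of the 5 and 4 tested without crosslinked input replicates 1 and 2. The replicate block gave 7 lower and 0 higher and changed no call of a named feature. Uhg2 (one model) changed sign with library size alone (0.26) and limma (0.15), and Uhg7 without rRNA in the library size (-0.23), with no filter beyond 1 read (-0.22) and summed by gene (-0.0366). Over the 6 named features and all alternatives, 59 of 78 values kept direction and side of the threshold, 12 lost the call, 2 gained one and 5 changed sign; the cause was not tested. The transcript share difference of 4.79 points was -8.14 against the non-crosslinked IP and 15.1 without Uhg4, and 1.42 to 8.17 with 1 library left out. Uhg intron features all belong to the intron class, so a share within lncRNA classes alone could give no value, nor could the log2 ratio of exonic over intronic reads within a host. The difference in host reads per 100 snoRNA reads, -6.70, was -4.63 without Uhg4, -10.8 without H/ACA genes, -7.23 without snoRNA genes inside a second gene, and -6.97 to -6.44 with 1 library left out. In the replicate block both differences equal the unpaired ones, 4.79 and -6.70, by arithmetic, so this is no check of pairing. Depth limits Uhg3, Uhg7, Uhg8 and most introns, which held few reads in the IP libraries.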

Other observations

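Outside the Uhg family, 102 genes hold at least 1 snoRNA gene. Of 307 tested exonic features in 68 of these genes, 9 were called higher and 143 lower when crosslinked IP was set against its input, with a median log2 fold change of -0.94, beside 13.6% higher and 36.5% lower among all exons. Of 170 tested intronic features in 62 of them, 71 were called higher and 11 lower, with a median of 0.64, beside 56.9% higher and 1.32% lower among all introns outside Uhg (edgeR adjusted p under 0.05).

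The Uhg1 and Uhg5 features in the piRNA-cluster class held few reads. That of Uhg1 had 4 and 3 reads in the crosslinked IP, against 6 and 3 in the crosslinked input, 4 in the non-crosslinked IP and 3 in the non-crosslinked input. That of Uhg5 had 1 and 2 reads in the crosslinked IP, against 5 and 4 in the crosslinked input, 2 in the non-crosslinked IP and 1 in the non-crosslinked input.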
